A study of Mus musculus with 4 samples.

Results

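Transcripts of 10 neurogenic transcription factors, *Neurog1*, *Neurod1*, *Neurod4*, *Isl1*, *Pou4f1*, *Pou4f2*, *Scrt1*, *Scrt2*, *Myt1* and *Ebf1*, were measured in cochlear ducts of mouse embryos. The genes were taken by symbol from the gene column of the arrays, which carry 29924 gene names, and 11 probes were found for them, 2 of them for *Neurod1*. A probe entered the tests if at least 4 of its 8 measurements (4 arrays in 2 dyes) stood well above background, and 6 of the 10 genes passed (*Isl1*, *Pou4f1*, *Pou4f2*, *Scrt1*, *Scrt2* and *Ebf1*), of 21042 genes tested in all. *Neurog1*, *Neurod1*, *Neurod4* and *Myt1* did not pass and were fitted only in an alternative setting without this filter.

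Proneural factors of the bHLH class, such as *Neurog1*, start the program that turns an otic progenitor into a neuroblast, and *Neurod1* and *Neurod4* follow it as the neuroblast leaves the epithelium and differentiates. Homeodomain factors of the LIM and POU classes then give the cell a sensory neuron identity, the Scratch zinc fingers act as repressors in newborn neurons, *Myt1* counters Notch signalling in differentiating cells, and *Ebf1* belongs to the COE family, which acts in late neuronal differentiation and in other tissues. In the inner ear some of these factors, such as *Neurod1* and *Pou4f1*, are known from the neurons of the spiral ganglion, while *Isl1* is also expressed in the prosensory epithelium of the duct.

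The embryos were of the NMRI strain. Mutants carried Sox2(creERT2);Tbx2(fl/fl) and are named *Sox2-Tbx2LOF*, and the controls are given as Tbx2(fl/n.d.), with the other *Tbx2* allele not determined, and as cre-negative in the methods. The tamoxifen-inducible Cre is driven from the *Sox2* locus and occupies 1 *Sox2* allele in the mutants alone, and it acts in cells that express *Sox2*. All dams of both genotypes received 4 mg of tamoxifen by mouth in 1 pulse at E12.5, and whole ducts were taken at E14.5 after removal of the spiral ganglion. Each of the 4 arrays set 1 pool of mutant ducts against 1 pool of control ducts of the same sex, with female pools on arrays 1 and 2 and male pools on arrays 3 and 4. Dyes were swapped, with mutant RNA in Cy5 on the first array of each sex (1 and 3) and in Cy3 on the other (2 and 4).

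The arrays resembled each other, with 69.2 to 72% of probes well above background per pool and no saturated spots, and all lay on 1 slide. All 15 listed markers of the cochlear epithelium were well above background in all 8 pools. *Tbx2*, the targeted gene, gave a mutant to control log2 ratio of -0.12 ± 0.098 (SD, n = 4) and was lower on 4 of 4 arrays (adjusted p = 0.124). Whether its probe lies in the deleted part was not determined, so the ratio does not check the genotype. *Sox2* had a ratio of 0.012 ± 0.181 (SD, n = 4; adjusted p = 0.935). Ducts were pooled whole, so fewer cells of a type and less RNA per cell cannot be told apart in any value below.

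*Pou4f1*, *Pou4f2* and *Scrt1* fell in *Sox2-Tbx2LOF* ducts. *Pou4f1* was at 59.3% and *Scrt1* at 58.8% of control on the normalised scale. For *Pou4f2* the estimated lower limit on the fall of the mean was 1.81-fold, and array 2 fell by less. The mutant pools lay below all control pools for each of the 3 genes, and how many of all genes tested do so was not counted. The remaining changes were small. *Scrt2* fell to 87.7% and *Isl1* rose to 115% of control, both past the adjusted p but under the 1.5-fold minimum, and *Ebf1* was at 101%. A gene was called where its Benjamini-Hochberg adjusted p in limma was under 0.05 and its change at least 1.5-fold. By that rule 3 of the 6 tested members were called lower, against 0.309% of all genes tested, and 0 were called higher, against 0.133%. The members were chosen with earlier results of these data known, so the contrast with all genes is a description and not a test. On the adjusted p alone, 4 were lower against 2.92% of all genes and 1 was higher against 2.26%. *Pou4f2* passed the filter on dim probes only through the control pools. Of the 5 members that were well above background in all 8 pools, 2 were called lower, against 61 of 20174 genes under the same filter.

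**Figure D1:**
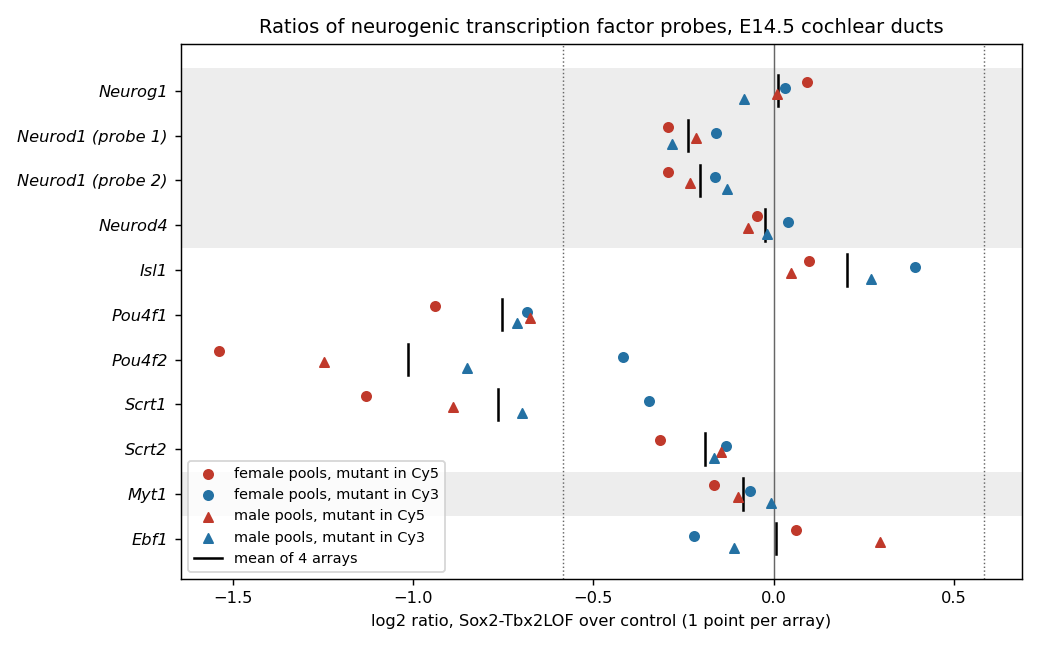
Log2 ratio of *Sox2-Tbx2LOF* over control on each of the 4 arrays (x axis) for the 11 probes of the 10 genes (y axis). Black bars are means of 4 arrays, colour gives the dye of the mutant pool, shape gives the sex, dotted lines mark 1.5-fold, and grey rows are probes too dim to be tested. *Pou4f1*, *Pou4f2* and *Scrt1* lie below 0 on every array, and for *Pou4f2* and *Scrt1* the ratios are larger where the mutant carried Cy5.

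Among the bHLH factors, *Neurod1* gave levels near background at both of its probes. *Neurod1* is needed for the survival of neurons of the spiral ganglion, and its probes lie at chr2:79293621-79293680 and chr2:79294309-79294368 (mm9, minus strand). The first was well above background in 0 of 8 pools. Its log2 level was 6.24, 6.18, 6.27 and 6.15 in the mutant pools of arrays 1 to 4 and 6.53, 6.34, 6.48 and 6.43 in the control pools. The second was well above background in 0 mutant and 2 control pools, with levels of 6.51, 6.43, 6.53 and 6.50 in mutants and 6.80, 6.59, 6.76 and 6.63 in controls. For each probe every mutant pool was below every control pool. How many probes as dim as these do so was not counted, so the order of the pools is a description alone. Since the mutant pools and part of the control pools were not well above background, no fold is given for the second probe. Brightness above the local background, before any normalisation, was 10.5 to 22.9 units in mutant and 25.7 to 32.2 units in control pools at the second probe. These ranges mix pools in Cy5 and Cy3, which differ in brightness. Over all probes the median spot read 496.5 to 563.4 units in Cy5 and 262.9 to 291.9 units in Cy3. The first probe gives no fold either.

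*Neurog1*, which starts otic neurogenesis, was not well above background in any of the 8 pools (chr13:56352616-56352675, mm9, minus strand). Its log2 level ran from 6.57 to 6.74 in mutant and from 6.61 to 6.65 in control pools, which overlapped. The log2 ratio was 0.012 ± 0.073 (SD, n = 4), higher on 3 and lower on 1 array. *Neurod4* was likewise not well above background in any pool (chr10:129706046-129706105, mm9, minus strand), with levels of 6.21 to 6.32 in mutant and 6.23 to 6.35 in control pools. No fold is given for either gene, because neither group was well above background.

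*Pou4f1* encodes BRN3A, a factor of sensory neuron identity that also marks a subset of spiral ganglion neurons, and *Pou4f2* encodes its relative BRN3B, best known from retinal ganglion cells. The probes that measured them are shown here by their first 30 of 60 bases, to let the paralogous measurements be told apart.
Pou4f1 probe: tgcgccaacatacaacagggagatgtgtcc
Pou4f2 probe: ctctccaaagttctgagttctgtatatgac

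The longest run of bases that these 2 probes have in common over their whole length is 6, and with the probe of the third family member, *Pou4f3*, it is 5 for *Pou4f1* and 4 for *Pou4f2*. The probes lie at chr14:104862743-104862802 and chr8:80957048-80957107 (both mm9, minus strand).

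*Pou4f1* had log2 levels of 8.08, 7.88, 8.22 and 7.85 in the mutant pools of arrays 1 to 4. In the control pools of the same arrays they were 9.02, 8.57, 8.90 and 8.57. Every mutant pool was thus below every control pool, with means of 8.01 ± 0.173 and 8.76 ± 0.23 (SD, n = 4). The log2 ratio was -0.94, -0.68, -0.68 and -0.71 on arrays 1 to 4. The fitted change was -0.75 with a standard error of 0.048 (limma, adjusted p = 0.000172), a 1.69-fold decrease. It had the smallest spread between arrays of the 3 genes called, with a mean of -0.81 in female and -0.69 in male pools and of -0.81 and -0.70 with the mutant in Cy5 and in Cy3.

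*Pou4f2* had log2 levels of 6.29, 6.44, 6.59 and 6.36 in the mutant pools and 7.83, 6.86, 7.84 and 7.21 in the control pools of arrays 1 to 4. It was well above background in all 4 control pools and in 0 of 4 mutant pools. The pools did not overlap. Before normalisation the probe stood 49.5 to 124 units above its local background in controls and 8.06 to 33.7 units in mutants. These ranges too mix pools in the brighter Cy5 and the dimmer Cy3. The log2 ratio was -1.54, -0.42, -1.25 and -0.85, and the fitted change was -1.01 with a standard error of 0.075 (adjusted p = 0.000304). As the mutant level is only a bound, the fall of *Pou4f2* in the mean of the 4 arrays was put at 1.81-fold or more, an estimate. On array 2 alone the log2 ratio was -0.42, a smaller fall. The ratio moved with the dye, at -1.39 where the mutant carried Cy5 and -0.63 where it carried Cy3, and less with sex, at -0.98 in female and -1.05 in male pools. With Agilent's processed signals the fitted ratio was -3.32 and with a normexp offset of 10 it was -1.54, so that its size depended on the background setting.

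*Isl1* moved the other way. It encodes a LIM homeodomain factor of sensory neurons and of the prosensory epithelium, and its probe lies at chr13:117088774-117088833 (mm9, minus strand). The log2 level was 14.90, 14.97, 14.75 and 14.95 in mutant pools and 14.80, 14.58, 14.70 and 14.68 in control pools of arrays 1 to 4. The lowest mutant pool was below the highest control pool, so the groups overlapped, although the ratio was above 0 on 4 of 4 arrays. The log2 ratios were 0.099, 0.39, 0.048 and 0.27, and the fitted change was 0.20 with a standard error of 0.037 (adjusted p = 0.0245). This too followed the dye, with 0.073 where the mutant carried Cy5 and 0.33 where it carried Cy3. The adjusted p stayed under 0.05 in 6 of 14 alternative settings and reached 0.322 without the dye term.

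**Figure D2:**
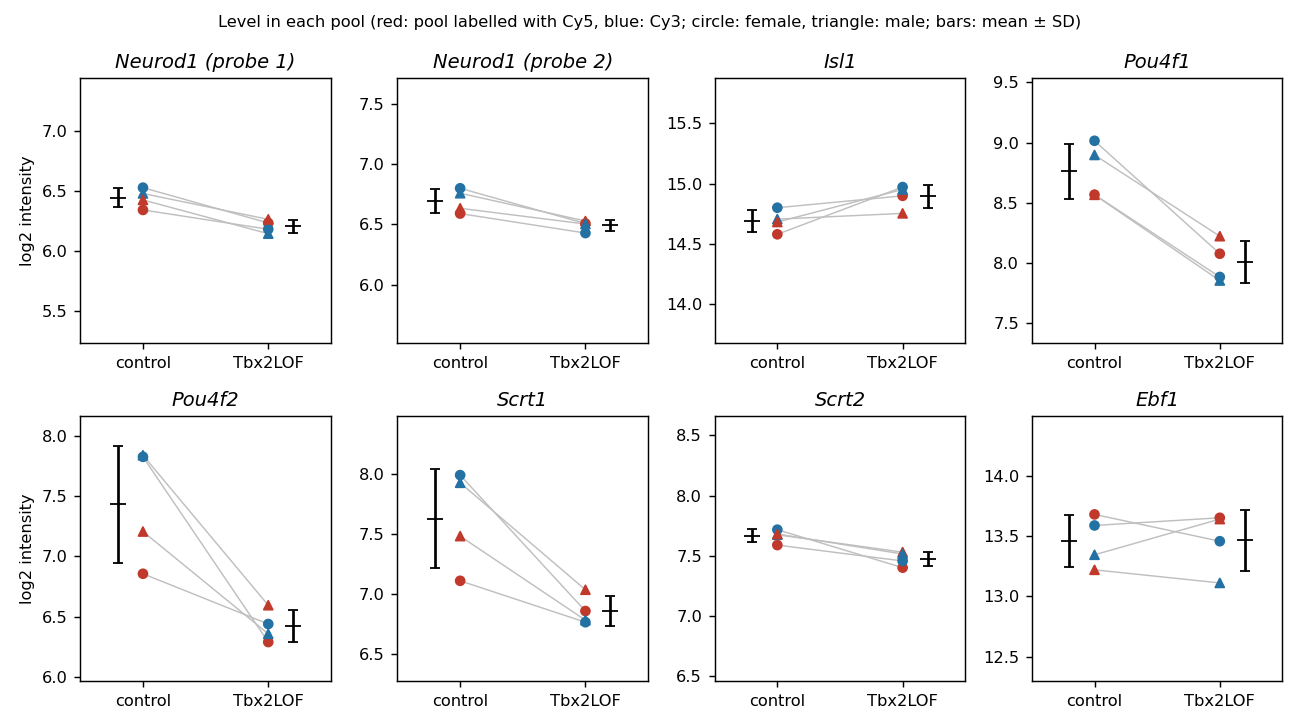
Normalised log2 intensity in the 4 control and 4 *Sox2-Tbx2LOF* pools for the 6 tested genes and both *Neurod1* probes. Grey lines join the pools of an array, colour gives the dye of the pool, shape gives the sex, bars are mean ± SD, and every panel spans the same log2 range. Pools do not overlap for *Pou4f1*, *Pou4f2*, *Scrt1*, *Scrt2* and *Neurod1*, whereas those of *Isl1* and *Ebf1* do. The share of all genes whose pools do not overlap was not counted.

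The promoters of the 2 POU genes are shown because both genes fell together. The sequences are the 250 bases upstream of the annotated start in RefSeq (GRCm38.p6, a later build than that of the probe positions), at chr14:104468000-104468249 and chr8:78436648-78436897, both on the minus strand and written in the direction of transcription. Capitals mark E-boxes (CANNTG, the sequence bound by bHLH factors).
Pou4f1 promoter: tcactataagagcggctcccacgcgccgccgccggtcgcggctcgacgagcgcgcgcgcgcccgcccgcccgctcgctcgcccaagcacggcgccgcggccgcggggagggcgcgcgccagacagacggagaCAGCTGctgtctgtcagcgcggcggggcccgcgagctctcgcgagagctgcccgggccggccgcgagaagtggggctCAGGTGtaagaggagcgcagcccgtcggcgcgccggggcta
Pou4f2 promoter: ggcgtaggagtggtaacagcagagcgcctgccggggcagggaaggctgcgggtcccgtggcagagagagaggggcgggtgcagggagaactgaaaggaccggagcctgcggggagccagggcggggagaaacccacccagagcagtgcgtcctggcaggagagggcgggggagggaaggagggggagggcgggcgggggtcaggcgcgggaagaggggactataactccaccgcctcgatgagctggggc

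Both windows are rich in G and C, at 78% for *Pou4f1* and 70.8% for *Pou4f2*. *Pou4f1* holds 2 E-boxes, of which the second overlaps the only match to AGGTGT, the core of the site bound by T-box factors. *Pou4f2* holds 0 matches to either. Searched on both strands, CANNTG occurs in 66.2% and AGGTGT in 11.8% of 32851 RefSeq windows of the same length. The longer T-box sequence AGGTGTGA, which contains AGGTGT, occurs in 1.12% of windows and in 0 of the 12 windows listed for 8 of the 10 genes (all but *Scrt1* and *Scrt2*). CAGATG, a form of the E-box, occurs in 14.4% of windows and in 0 of these 12. Apart from *Pou4f1*, AGGTGT is found in windows of *Neurod4* and *Ebf1*. Such a match is a run of letters and not a measured site.

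Of the zinc finger genes, *Scrt1* fell most. *Scrt1* and *Scrt2* encode the Scratch repressors of the Snail family, made by neurons as they leave the cell cycle. Their probes are shown by their first 30 bases because these too are paralogs, and the longest run shared between them is 5 bases.
Scrt1 probe: gctcctcggagcgccgcacctccacgagga
Scrt2 probe: acccctattccttccccaccttcagcagta

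*Scrt1* (chr15:76346633-76346692, mm9, minus strand) was well above background in all 8 pools. Its log2 level was 6.86, 6.77, 7.04 and 6.78 in mutant pools and 7.99, 7.11, 7.93 and 7.48 in control pools. The highest mutant pool was below the lowest control pool by a small margin, and the control pools varied more (SD 0.412) than the mutant pools (SD 0.124). The log2 ratio was -1.13, -0.34, -0.89 and -0.70, and the fitted change was -0.77 with a standard error of 0.064 (adjusted p = 0.000552), a 1.70-fold decrease. It was -1.01 with the mutant in Cy5 and -0.52 with the mutant in Cy3, and -0.74 in female and -0.79 in male pools. When mutant and control pools were compared as unpaired channels, the adjusted p was 0.097 and the call was lost. With Agilent's processed signals the ratio was -1.64.

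*Scrt2* (chr2:151921462-151921521, mm9, plus strand) changed less. The log2 level was 7.40, 7.46, 7.53 and 7.51 in mutant and 7.72, 7.59, 7.67 and 7.68 in control pools. The pools did not overlap, yet the log2 ratios of -0.32, -0.13, -0.14 and -0.17 were small. The fitted change was -0.19 with a standard error of 0.040 (adjusted p = 0.0392), a 1.14-fold decrease that is under the minimum for a call. Its adjusted p stayed under 0.05 in 6 of 14 alternative settings and was above it whichever array was left out. *Myt1* (chr2:181562013-181562072, mm9, plus strand) was not well above background in any pool, with levels of 6.10 to 6.29 in mutant and 6.16 to 6.39 in control pools, which overlapped.

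*Ebf1*, the COE factor, did not differ between genotypes beyond the spread. Its probe lies at chr11:44818438-44818497 (mm9, plus strand). The log2 level was 13.65, 13.46, 13.64 and 13.11 in mutant pools and 13.59, 13.68, 13.35 and 13.22 in control pools. The ratios were 0.064, -0.22, 0.30 and -0.11, above 0 on the 2 arrays with the mutant in Cy5 and below 0 on the 2 with it in Cy3. The fitted change was 0.0074 with a standard error of 0.047 (adjusted p = 0.952).

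The interaction of genotype and sex passed the test for 0 of the 6 tested members. The difference of male minus female ratios lay between -0.087 for *Isl1* and 0.17 for *Ebf1*, with an adjusted p of 1 for each of the 6 in limma. Across all genes 0 passed the adjusted p, and 558 had an unadjusted p under 0.05, a count that was 67 without the dye term and 688 with Agilent's processed signals. Each of these counts is below the number that chance gives at that limit among 21042 genes. With the dye term this fit had 1 residual degree of freedom before eBayes, so a difference between the sexes could be missed.

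Of 26 further neurogenic transcription factors, 19 were tested and 0 were called. On the adjusted p alone 5 were lower, against 2.92% of all genes, and 1 was higher, against 2.26%. The median log2 ratio of the 19 was 0.017, beside 0.0024 for all genes and -0.47 for the 6 tested members. *Prdm12*, a regulator of nociceptive neurons, fell by 0.39 on the log2 scale with a standard error of 0.041 (adjusted p = 0.00172), but its probe was well above background in only 1 of 4 mutant pools, against 4 of 4 control pools. *Prdm8* fell by 0.29 with a standard error of 0.034 (adjusted p = 0.0028). *Onecut2* (-0.31), *Neurog3* (-0.26) and *Isl2* (-0.15) also fell, and *Ebf4* rose (0.17). *Pou4f3*, the POU factor of hair cells, had a ratio of 0.044 with a standard error of 0.056 (adjusted p = 0.728).

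Repressors that hold back neurogenesis were measured in full, with 12 of 12 tested. *Hes5*, a Notch effector, was called lower, at -0.95 with a standard error of 0.102 (adjusted p = 0.00198), and it fell on 4 of 4 arrays. This was the only call in the list, beside 0.309% of all genes tested called lower. *Hey2*, which is also regulated by Notch and by FGF signals, rose by 0.36 with a standard error of 0.033 (adjusted p = 0.000969), under the fold minimum. The other 10 did not pass, with ratios between -0.076 for *Hey1* and 0.23 for *Notch1*. Receptors and effectors of sensory neurons gave 0 calls among 10 tested of 14 listed. *Slc17a6*, the vesicular glutamate transporter VGLUT2, fell by 0.35 with a standard error of 0.041 (adjusted p = 0.00313), and *Ntrk3*, the receptor of neurotrophin 3, rose by 0.16 (adjusted p = 0.0385).

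Most listed markers of neurons moved with the 3 factors called, although the ganglion had been removed from the ducts. All 24 listed markers were tested and 23 of them stood well above background in each of the 8 pools. Of these 24, 6 were called lower, against 0.309% of all genes tested, and 0 were called higher, against 0.133%. The median log2 ratio was -0.37. On the adjusted p alone 15 were lower, against 2.92% of all genes, and 2 were higher, against 2.26%. The list was chosen with earlier results of these data known, so this contrast is a description. The largest falls were those of *Stmn3* (-1.75, standard error 0.123, adjusted p = 0.000259) and *Stmn4* (-1.74, standard error 0.1, adjusted p = 0.000119), which encode microtubule-binding stathmins. *Elavl3*, a neuronal RNA-binding protein, fell by 1.08 (adjusted p = 0.0001) and *Chgb*, a granin of secretory vesicles, by 0.93 (adjusted p = 0.000189). *Nefm* and *Ina*, which encode intermediate filaments of axons, were called as well. *Syt1* (0.24) and *Cplx2* (0.32) rose past the adjusted p, the latter on only 2 of 4 arrays. The summed intensity of the 24 markers ranged from 194566 to 247976 units in mutant and from 157316 to 244307 units in control pools and overlapped. *Cplx2* alone made up 58.5 to 76.1% of this sum, and its ratio was above 0 on both arrays with the mutant in Cy5 and below 0 on both with it in Cy3. Without *Cplx2*, left out after its values were seen, the sum of the other 23 was 58371 to 62655 units in mutant and 65334 to 70062 units in control pools, which did not overlap. Because of that choice the smaller sum is a description and not a test. The part of neuronal RNA in the fall of the members was not tested.

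Markers of Schwann cell precursors gave 3 calls among 10 tested, all of them lower, against 0.309% of all genes tested. *Foxd3*, a factor of neural crest cells, was at -1.18 with a standard error of 0.057 (adjusted p = 6.67e-05). *Ngfr*, the p75 neurotrophin receptor, was at -0.74 and *Cdh19* at -0.63. *Sox10* did not pass (0.0099, adjusted p = 0.917). The median of the list was -0.088. Its part in the fall of the members was not tested.

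Other cell types showed 0 calls. Among 10 hair cell markers *Jag2* fell (-0.19) and *Myo7a* rose (0.17). Among 15 epithelial markers *Lfng* (-0.52), *Fgf10* (-0.47) and *Jag1* (-0.19) fell and *Gata3* rose (0.34). Among 10 mesenchyme markers *Col1a1* rose (0.27), and of 8 blood and vessel markers 0 passed the adjusted p. The smallest adjusted p in that list were those of *Hba-a1* (0.19, adjusted p = 0.0853) and *Cdh5* (0.11, adjusted p = 0.129).

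**Figure D3:**
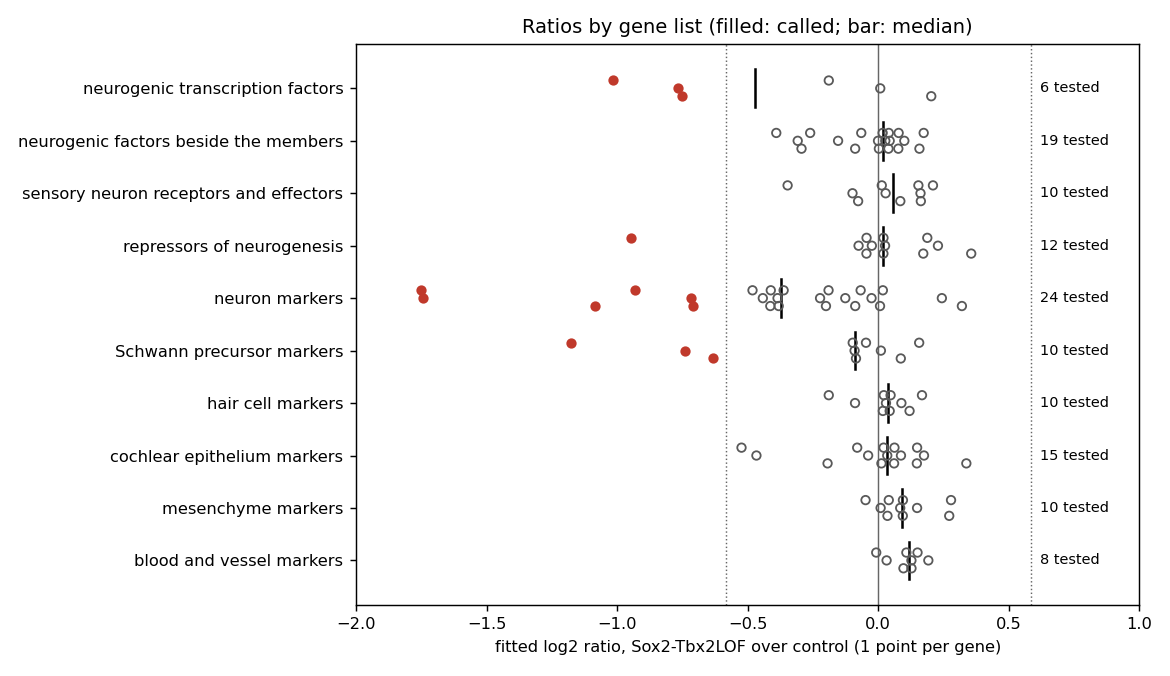
Fitted log2 ratio of *Sox2-Tbx2LOF* over control for each tested gene (x axis) by list (y axis), with called genes filled, medians as black bars and 1.5-fold as dotted lines. Calls fall among the neurogenic transcription factors (3), the repressors (1), the neuron markers (6) and the Schwann precursor markers (3).

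Over the 8 pools, the level of each tested member was set against the mean standardised level of the other 5. Pearson's r was 0.934 for *Scrt1*, 0.914 for *Pou4f2*, 0.909 for *Pou4f1* and 0.705 for *Scrt2*, whereas it was -0.107 for *Ebf1* and -0.648 for *Isl1*. Of the genes outside this set, those most like the mean of all 6 were *Epha8*, an ephrin receptor (r = 0.988), *Celf3*, an RNA-binding protein (r = 0.988), *Vgf*, a precursor of secreted neuropeptides (r = 0.987), *Elavl3* (r = 0.977) and *Cplx1*, a complexin of synaptic release (r = 0.975). *Celf3* (-1.17), *Vgf* (-0.79) and *Elavl3* were called lower, while *Epha8* (-0.37) and *Cplx1* (-0.39) fell by less than the minimum. The 8 points share arrays in pairs and split by genotype and dye, the genes lowered in mutants make up most of the mean, and *Pou4f2* enters it with mutant levels that were not well above background, so these values describe the likeness alone.

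**Figure D4:**
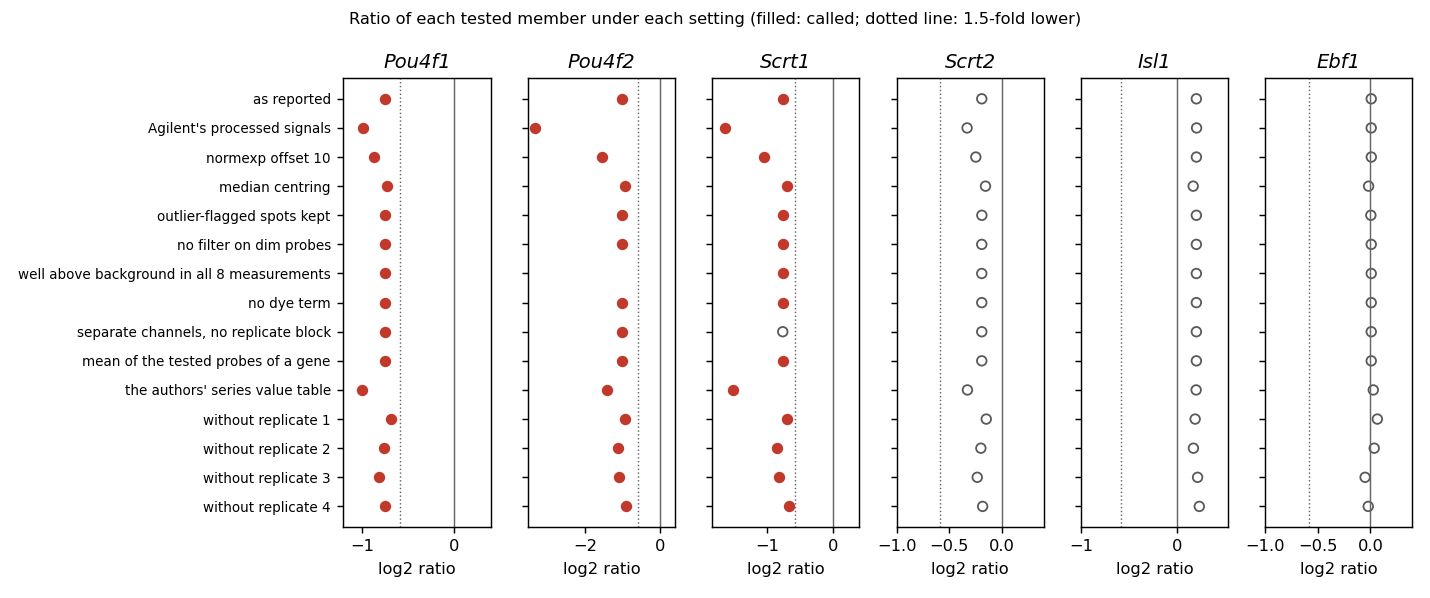
Fitted log2 ratio (x axis) of the 6 tested members under the setting reported and each alternative (y axis), with filled points for called genes and a dotted line at 1.5-fold lower. *Pou4f1* was called throughout, *Pou4f2* wherever it was tested, and *Scrt1* in all but the unpaired comparison of channels.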

How the data were processed

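RNA of 8 separately collected pools was hybridised to 4 Agilent 2-colour arrays and read with Feature Extraction 10.7.3.1. The deposited intensity values are mean spot and median background brightness, not normalised, and Agilent's processed intensity. The authors' value table holds a score (signed fold change, mutant to control), and its normalisation is not given in the sources used here. The authors' log ratios and p-values were not used. Symbols and mm9 positions came from the files, and exon or UTR positions are not given.

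With limma 3.58.1 in R 4.3.3, background was corrected by normexp (offset 50, which draws ratios of dim probes towards 0) and ratios were normalised by loess. Unflagged spots of each probe (4 spots, 8.29 to 8.56% of all spots flagged) were averaged. Well above background means that 50% or more of these spots were. Of 39429 probes 27963 were tested, and the brightest stood for its gene. Pool levels are log2 intensities after loess and Aquantile. lmFit and eBayes were run with genotype and dye terms (2 residual and 5.65 prior degrees of freedom) and Benjamini-Hochberg adjustment over all genes, and the fit was tested on simulated data. A lower limit sets the brighter group's mean against the dim group's mean of, per array, its own level or the dimmest signal that was well above background, whichever was higher, and dye bias in it was not tested. Probes that were not well above background can lie above that signal, so the limit is an estimate. The array pairs the pools. The number of arrays limits precision.

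The members and lists were chosen with earlier results of these data known. Genes named beside the members were *Tbx2*, *Sox2*, the called genes of each list (at most 4 by size, or the 2 of smallest adjusted p) and the 5 most like the members' profile. Others named were chosen after their values were seen.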

Additional observations from a re-analysis of the deposited data

Results flagged for a closer look

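In each group of 4 values, ratios over arrays or levels over pools, the value farthest from its neighbour was compared with Dixon's 95% limit. Of 33 such groups over the 11 probes, 1 passed, where chance flags about 1 in 20. The log2 ratio of *Pou4f1* on array 1 (female pools, mutant in Cy5) was -0.9394 against -0.68 to -0.71 on the others. Without that array the ratio of *Pou4f1* was -0.69 and remained called.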

How the results depend on the processing

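*Pou4f1* was called lower under all 14 alternatives, between -1.0 and -0.69 on the log2 scale (adjusted p 3.35e-07 to 0.0322). *Pou4f2* was called under the 13 in which it was tested, between -3.32 and -0.91 (adjusted p 3.47e-06 to 0.0417), and was not tested when all 8 measurements had to be well above background, which left 2 members called. *Scrt1* ranged from -1.64 to -0.68, and its call was lost only in the unpaired comparison of channels without the array as a replicate block (-0.77, adjusted p = 0.097). That comparison gave 53 genes lower, 23 higher and 2 members lower. *Scrt2* and *Isl1* passed the adjusted p in 6 of 14 alternatives each, and no member was called higher in any. Without the filter on dim probes, *Neurod1* (second probe) was lower with an adjusted p of 0.0156 in limma over 29924 genes. It was not called, and its signal was near background. *Neurog1*, *Neurod4* and *Myt1* did not pass the adjusted p there. *Ebf1* changed sign with median centring (-0.018) and without replicate 3 (-0.051) or 4 (-0.021), a range of -0.051 to 0.066 over single arrays left out. Agilent's processed signals gave 117 genes lower and 52 higher, and a fit to the deposited value table called 99 genes lower, against 65 and 28. The causes were not tested. Leaving out single arrays gave 61 to 69 lower, 27 to 34 higher and 3 members lower. For genotype by sex, without the dye term and with processed signals, 0 genes passed. The slide could not be fitted as a block, since there was 1 slide and 1 scan time. Signal near background limits *Neurog1*, *Neurod1*, *Neurod4*, *Myt1* and the mutant levels of *Pou4f2* and *Prdm12*.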
